A study of Mus musculus with 8 samples.

Results

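The 10 genes described here encode the acetylcholine receptor of skeletal muscle and the proteins that gather it at the neuromuscular junction. They are the receptor subunit genes Chrna1, Chrnb1, Chrnd, Chrne and Chrng, the clustering genes Musk, Lrp4, Dok7 and Rapsn, and Lynx1, whose product acts on nicotinic receptors. All 10 were found by symbol among the 23336 rows of the count table, and all 10 passed the filter on low counts. They were chosen by their known roles, with results of the comparison between the genotypes already in view, among them the lower level of Lynx1. The counts of called members and the adjusted p values below therefore describe these genes and are no independent support.

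RNA was sequenced from skeletal muscle of newborn C57BL/6 mice, labelled female, at postnatal day 2. There were 4 libraries from mice with the deltaDMR1-U2 genotype (ΔDMR1-U2), a deletion at the imprinted Igf2 locus, and 4 from wild-type mice, labelled 1A, 1B, 2 and 3 in each group. Depth was 16781493 to 20060129 counts for ΔDMR1-U2 and 16084413 to 26913636 counts for wild-type. The labels give neither the ends of the deletion, nor the parent that passed it on, nor whether the libraries come from separate animals. The p values therefore set each group difference against the spread between libraries, which may not be the spread between animals.

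Acetylcholine released by the motor nerve opens a receptor made of 5 subunits in the muscle membrane. The alpha, beta and delta subunits are joined by the gamma subunit in the fetal receptor, and the epsilon subunit takes the place of gamma in the adult receptor. Nerve-derived agrin binds LRP4, which activates the kinase MuSK with the help of the adaptor DOK7, and rapsyn then ties receptors together beneath the nerve ending. LYNX1 is a small membrane-anchored protein of the Ly6 family that dampens nicotinic receptors, as known mainly from the brain.

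The tissue label held against its markers. On the CPM scale, which is a count divided by the scaled library size and so comparable between libraries, titin (Ttn) was at 102000 to 119000 in ΔDMR1-U2 muscle and at 115000 to 134000 in wild-type, and skeletal actin (Acta1) at 11200 to 13800 in ΔDMR1-U2 muscle and at 12500 to 16600 in wild-type. Of the motor axon markers, Chat, which encodes the enzyme that makes acetylcholine, had 0 counts in all 8 libraries. Such a value allows up to 0.148 to 0.179 CPM in ΔDMR1-U2 muscle and up to 0.112 to 0.195 CPM in wild-type. Slc18a3 and Mnx1 were at most at 0.0849 CPM in any library. Slc5a7 was detected in every library, at 0.747 to 1.48 CPM in ΔDMR1-U2 muscle and 0.764 to 1.53 CPM in wild-type. Isl1 was at 0.267 to 1.53 CPM and 0.0849 to 1.84 CPM in the same order. The nuclei of motor neurons lie outside muscle. The ΔDMR1-U2 libraries 1A and 1B stood apart in single respects, 1A in Xist and 1B in adipocyte markers. Library 1A, although labelled female, held Xist, which coats the silenced X, at 49 counts (2.50 CPM), with 1522 to 1895 CPM in ΔDMR1-U2 libraries 1B, 2 and 3 and 1270 to 1575 CPM in wild-type. Library 1B had a summed level of 9 adipocyte markers of 632 CPM, with 250 CPM as the lowest ΔDMR1-U2 sum and 190 to 256 CPM in wild-type. Values without these libraries are given beside the results that rest on them.

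Promoter windows are shown because they belong to the fetal subunit, the adult subunit and the ligand-binding alpha subunit whose levels are compared below. They are the bases before the RefSeq gene start, GRCm38.p6 build, 5′ to 3′ on the strand of each gene and without annotated exons. The RefSeq start of Chrng lies inside the gene as GENCODE annotates it, so its window is within that longer gene model. Capitals mark matches to CANNTG, the E-box, a binding motif of myogenic factors such as MyoD and myogenin, and to CCGGAA, the N-box that binds GABP in receptor genes. Both strands were searched, CANNTG reads alike on both, and no match of one motif overlapped the other in these windows.
Chrng, chr1:87205561-87205809, plus strand: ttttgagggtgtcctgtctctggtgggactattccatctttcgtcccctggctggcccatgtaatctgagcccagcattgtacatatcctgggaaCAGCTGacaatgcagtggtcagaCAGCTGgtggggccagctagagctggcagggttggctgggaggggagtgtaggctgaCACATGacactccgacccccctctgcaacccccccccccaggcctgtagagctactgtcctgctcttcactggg
Chrne, chr11:70619217-70619444, minus strand: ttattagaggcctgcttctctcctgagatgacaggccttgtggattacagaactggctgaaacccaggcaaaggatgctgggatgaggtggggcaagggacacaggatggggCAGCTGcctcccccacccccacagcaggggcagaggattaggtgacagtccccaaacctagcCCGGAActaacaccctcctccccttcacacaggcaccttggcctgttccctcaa
Chrna1, chr2:73580339-73580588, minus strand: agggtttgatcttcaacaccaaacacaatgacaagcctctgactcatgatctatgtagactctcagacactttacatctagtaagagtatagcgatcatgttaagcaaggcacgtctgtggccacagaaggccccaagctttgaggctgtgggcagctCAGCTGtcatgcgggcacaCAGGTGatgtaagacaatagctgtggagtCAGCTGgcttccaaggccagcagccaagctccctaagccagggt
The windows of Chrng and Chrna1 each held 3 E-boxes and no N-box. Chrne held 1 E-box and 1 N-box. The RefSeq promoter table had entries for 6 of the 10 members. Musk held 3 E-boxes in 248 bases, Chrnb1 held 3 in 124 bases left after exons were taken out, and Dok7 held 1 in its upstream window. Of all 32851 windows of 250 bases in the table, exons not taken out, 66.2% held at least 1 E-box, 12.2% held 3 or more, and 12% held an N-box. These are matches of letters and say nothing of which factor was bound.

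The muscle receptor genes were all expressed at day 2, with Chrne far the lowest of them. Because longer transcripts collect more counts, levels are compared between genes as CPM per kilobase of the longest annotated transcript. On that scale Chrnb1, the beta subunit, was at 33.4 ± 4.80 in ΔDMR1-U2 muscle and 39.3 ± 2.61 in wild-type (SD, n = 4 each). Chrna1, the alpha subunit that binds acetylcholine, was at 21.3 ± 2.49 in ΔDMR1-U2 muscle and 22 ± 1.80 in wild-type. Chrnd, the delta subunit, was at 14.0 ± 4.33 in ΔDMR1-U2 muscle and 13.2 ± 1.03 in wild-type. Chrng, the fetal gamma subunit, was at 12.4 ± 2.56 in ΔDMR1-U2 muscle and 16.1 ± 2.88 in wild-type. Chrne, the adult epsilon subunit, was at 1.45 ± 0.201 in ΔDMR1-U2 muscle and 1.95 ± 0.227 in wild-type. The order beta, alpha, then gamma and delta, then epsilon held in both groups. Within libraries, gamma was above delta in every wild-type library, by little in library 3, and below it in ΔDMR1-U2 libraries 1A, 1B and 3. With the length of all exons joined, gamma was at 8.29 and delta at 12.6 in ΔDMR1-U2 muscle. In wild-type they were at 10.8 and 11.9, so the order of these genes depended on the length used.

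The clustering genes lay among the subunits on the per-kilobase scale. Musk was at 19.2 ± 7.49 in ΔDMR1-U2 muscle and 13.3 ± 1.15 in wild-type, Lrp4 at 14.9 ± 1.59 and 15.2 ± 1.56 in the same order, and Rapsn at 14.6 ± 2.33 and 15.4 ± 0.921. In each group the ranges of these 3 genes overlapped those of the genes next to them in the order. Rapsn and Chrnd, which are not next to each other, did not overlap in wild-type, with Rapsn at 14.4 to 16.6 and Chrnd at 11.9 to 14.1. Dok7 and Lynx1 stood lower, at 5.46 ± 1.25 and 4.82 ± 0.152 in ΔDMR1-U2, and at 5.80 ± 0.637 and 7.10 ± 0.442 in wild-type. In ΔDMR1-U2 Lynx1 ran from 4.66 to 5.01 and Dok7 from 3.86 to 6.91, and in wild-type Lynx1 ran from 6.58 to 7.66 and Dok7 from 5.09 to 6.63, so these neighbours overlapped in both groups.

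**Figure D1:**
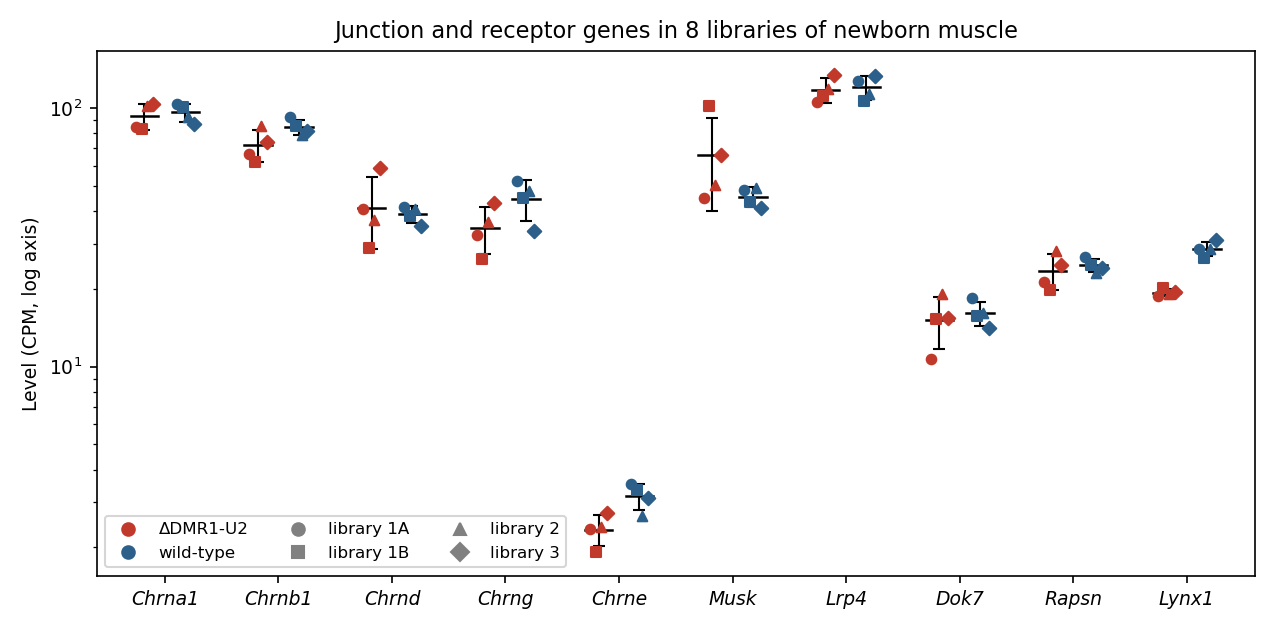
Level of each of the 10 genes in CPM on a log axis, with ΔDMR1-U2 (red) left of wild-type (blue). Points are single libraries with a symbol for each library label, and bars are the mean ± SD of 4 libraries. The groups are separate for Lynx1 alone, and Chrne is the lowest gene, at 1.92 to 3.50 CPM.

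The fetal receptor subunit outweighed the adult one about equally in both genotypes. Chrng had 13.8, 13.6, 15.2 and 15.9 counts for each count of Chrne in ΔDMR1-U2 libraries 1A, 1B, 2 and 3, against 14.9, 13.6, 18.1 and 10.8 in the wild-type libraries of these labels. The ΔDMR1-U2 values all lie within the wild-type range. The mean ratio was 14.6 ± 1.10 in ΔDMR1-U2 muscle and 14.4 ± 3.0 in wild-type (SD, n = 4 each). On the log2 scale the ratio was 3.87 ± 0.11 in ΔDMR1-U2 muscle and 3.82 ± 0.31 in wild-type, and the difference of 0.05 was smaller than either SD. It stayed between -0.08 and 0.17 when each library was left out in turn, and was 0.14 without ΔDMR1-U2 libraries 1A and 1B.

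The precision of this ratio is set by Chrne, which had 36 to 55 counts per library in ΔDMR1-U2 muscle and 54 to 87 in wild-type. The exact 95% binomial intervals of the ratio, which cover counting error only, ran from 9.72 to 19.7 in ΔDMR1-U2 library 1B, which had the fewest counts of Chrne. They ran from 14.2 to 23.3 in wild-type library 2 and from 8.53 to 14.0 in wild-type library 3, so the highest and lowest wild-type libraries did not overlap. Per kilobase of the longest transcript the ratio was 8.51 ± 0.637 in ΔDMR1-U2 muscle and 8.35 ± 1.75 in wild-type. With the length of all exons joined it was 5.94 and 5.83 in the same order, since Chrng has 4163 bases of annotated exons against 2780 in its longest transcript. Chrne, on chromosome 11 from 70614883 to 70619216 (minus strand, mm10), overlaps 4930544D05Rik on the opposite strand with 0 shared exonic bases.

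**Figure D2:**
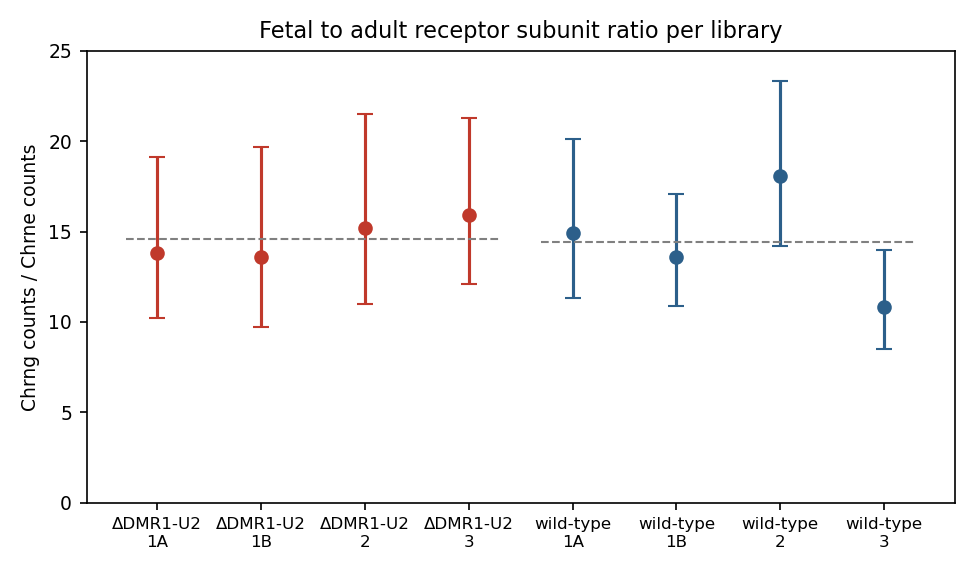
Counts of Chrng divided by counts of Chrne in each library, with ΔDMR1-U2 in red on the left and wild-type in blue on the right. Bars are exact 95% binomial intervals and dashed lines are group means, at 14.6 in ΔDMR1-U2 muscle and 14.4 in wild-type; all 4 ΔDMR1-U2 points lie inside the wild-type range of 10.8 to 18.1.

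Between the genotypes, 1 of the 10 members was called, with an adjusted p under 0.05 over all 15241 genes tested (quasi-likelihood test of edgeR, adjusted by Benjamini-Hochberg). It was Lynx1, which fell, and 0 members rose. Over all genes 1.13% were called, 0.512% higher and 0.617% lower. Without adjustment 5 of the 10 had a p under 0.05 in edgeR, Lynx1, Chrnb1, Chrne and Chrng with lower and Musk with higher levels in ΔDMR1-U2, where 21.3% of all genes had. The median log2 fold change of the members was -0.08, beside 0.00 over all genes. The authors' deposited table holds an adjusted p under 0.05 for Lynx1 alone among the members, where 0.887% of its genes have one, and DESeq2 called Lynx1 alone, where it called 6.44% of the genes it adjusted.

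The counts of Lynx1 were 367, 378, 320 and 395 for ΔDMR1-U2 (1A, 1B, 2 and 3) and 439, 692, 763 and 726 for wild-type in the same order of labels. Scaled for library size these were 18.8, 20.2, 19.1 and 19.5 CPM in ΔDMR1-U2 muscle and 28.5, 26.5, 28.5 and 30.8 CPM in wild-type. All 4 ΔDMR1-U2 libraries lay below all 4 wild-type libraries. Lynx1 was the member with the smallest spread in ΔDMR1-U2, with an SD of 3.15% of the mean, and libraries 1A and 1B were close to 2 and 3. That spread is smaller than counting error alone gives at such counts, so it does not show that the libraries were uniform. The mean was 19.4 ± 0.610 CPM in ΔDMR1-U2 muscle and 28.6 ± 1.78 CPM in wild-type (SD, n = 4 each), which is -0.56 ± 0.07 as log2 fold change ± SE (edgeR adjusted p = 0.0150). Groups that do not overlap were found in 12.8% of all genes tested, and in 6.38% with ΔDMR1-U2 the lower group.

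The size of the Lynx1 difference moved little while its call did not hold in every fit. With each library left out in turn, its log2 fold change kept to -0.59 to -0.52, and 5 of these 8 fits called it. The call was lost without ΔDMR1-U2 library 3 (adjusted p = 0.0595), wild-type library 1A (adjusted p = 0.0610) or wild-type library 2 (adjusted p = 0.0707, all edgeR). Without both ΔDMR1-U2 libraries 1A and 1B the log2 fold change was -0.57 (edgeR adjusted p = 0.0570). For Lynx1 the authors' deposited table has 1.48 as the fold of wild-type over ΔDMR1-U2, with an adjusted p of 0.0103.

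In bulk tissue, fewer cells of a type and less RNA per cell cannot be told apart. Nerve-related marker lists are set beside Lynx1. The sum of 18 motor axon and nerve terminal genes was 31.7 to 36.2 CPM in ΔDMR1-U2 muscle and 33.5 to 39.3 CPM in wild-type, and 0 of its 11 tested genes were called by edgeR or DESeq2, with 1 at an unadjusted p under 0.05. The sum of 10 Schwann cell markers was 333 to 418 CPM in ΔDMR1-U2 muscle and 234 to 329 CPM in wild-type. Of these Schwann cell genes 9 had positive log2 fold changes, with a list median of 0.58 and 0 called by edgeR, while 5 had an unadjusted p under 0.05 and DESeq2 called 3 higher. Beside the counts of these and the later lists, 21.3% of all genes had an unadjusted p under 0.05 (edgeR), and DESeq2 called 6.44%. The part of the nerve-related genes in the level of Lynx1 was not tested.

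Lynx1 lies on chromosome 15 from 74747852 to 74753046 on the minus strand (mm10) and overlaps no other annotated gene. Slurp2, a secreted Ly6 protein gene, lies 1158 bases away on the same strand, and its row, under the older symbol 2300005B03Rik, held at most 0.0534 CPM in any library. Of 17 other Ly6 family genes, 8 passed the filter and 0 were called by edgeR or DESeq2, with 1 at an unadjusted p under 0.05. Their median log2 fold change was -0.02. The most abundant of them were Ly6e, at -0.21 ± 0.12 (SE), and Gpihbp1, which carries lipoprotein lipase across capillary walls, at -0.08 ± 0.10 (SE).

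The genes whose profile over the 8 libraries was nearest to that of Lynx1, by the root mean square difference of centred log2 CPM, were Got1, Igfbp7 and Glrx5, at 0.0810, 0.0828 and 0.0829. The root mean square of Lynx1 about its own mean was 0.285. Got1, the cytosolic aspartate aminotransferase, had 42.9, 43.1, 39.3 and 40.8 CPM in ΔDMR1-U2 muscle and 69.2, 59.8, 61.8 and 62.8 CPM in wild-type. All 3 neighbours were among the genes called lower, with log2 fold changes of -0.61, -0.49 and -0.53. The match covers all 8 libraries and so includes the difference between the groups. Their lower level was thus set by the selection and is no independent result.

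Chrne and Chrng were each lower on average in ΔDMR1-U2, and neither was called. Chrne had 2.35, 1.92, 2.39 and 2.71 CPM in ΔDMR1-U2 libraries 1A, 1B, 2 and 3, against 3.50, 3.33, 2.65 and 3.10 CPM in wild-type. Of the ΔDMR1-U2 libraries, 3 were below all of wild-type and library 3 lay above wild-type library 2. The fitted log2 change was -0.42 ± 0.16 (SE, edgeR adjusted p = 0.173). Chrng had 32.5, 26.2, 36.2 and 43.2 CPM in ΔDMR1-U2 libraries, against 52.4, 45.2, 48.0 and 33.6 CPM in wild-type. Wild-type library 3 lay within the ΔDMR1-U2 range and the other 3 wild-type libraries lay above it. The fitted log2 change was -0.37 ± 0.16 (SE, edgeR adjusted p = 0.213).

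Both estimates moved with single libraries of either group. Without ΔDMR1-U2 libraries 1A and 1B the log2 fold change was -0.29 for Chrne and -0.17 for Chrng. It was -0.33 and -0.26 without 1B alone, and -0.41 and -0.34 without 1A alone. Leaving out wild-type library 1A gave -0.37 for Chrne and -0.29 for Chrng. Chrne was at -0.49 without wild-type library 2, and Chrng at -0.49 without wild-type library 3. The profiles nearest to Chrne were those of Lrrc20, 2810006K23Rik and Mlec, with root mean square differences of 0.0464, 0.0520 and 0.0593 beside 0.261 for Chrne about its own mean. The profiles nearest to Chrng were those of Traf5, Igtp and Cd82, at 0.107, 0.116 and 0.122 beside 0.314. These 6 genes were not called by edgeR, and their log2 fold changes lay between -0.44 for Igtp and -0.26 for Cd82. Their direction, too, was set by the selection.

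Chrnd and Chrng are neighbours on chromosome 1, 4586 bases apart and on the same strand, from 87190607 to 87200070 and from 87204657 to 87212694 (mm10). Chrnd had 40.7, 28.7, 36.9 and 59.0 CPM in ΔDMR1-U2 libraries 1A, 1B, 2 and 3, against 41.7, 38.4, 40.9 and 34.99 CPM in wild-type. The ΔDMR1-U2 libraries held both the lowest and the highest value, in 1B and in 3. The fitted log2 change was 0.08 ± 0.18 (SE), and it was -0.13 without ΔDMR1-U2 library 3, 0.23 without 1B and 0.30 without 1A and 1B. Chrng had 0.856 ± 0.111 counts for each count of Chrnd in ΔDMR1-U2 muscle and 1.14 ± 0.126 in wild-type (SD, n = 4 each). The ratio ran from 0.733 to 0.981 in ΔDMR1-U2 muscle and from 0.961 to 1.26 in wild-type, so the groups overlapped by the values of ΔDMR1-U2 library 2 and wild-type library 3.

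The alpha and beta subunits, present in the fetal and the adult receptor alike, were not called. Chrna1 had 85.04, 83.2, 102 and 104 CPM in ΔDMR1-U2 libraries 1A, 1B, 2 and 3, against 104, 102, 92.9 and 87.2 CPM in wild-type. The fitted log2 change was -0.05 ± 0.09 (SE), and the groups covered nearly the same range. Chrnb1 had 66.4, 61.9, 85.5 and 74.4 CPM in ΔDMR1-U2, against 92.3, 85.5, 79.2 and 82.1 CPM in wild-type. Here 3 ΔDMR1-U2 libraries lay below all of wild-type and library 2 lay among them. For Chrnb1 the fitted log2 change was -0.23 ± 0.10 (SE, edgeR adjusted p = 0.202), and it was -0.09 without libraries 1A and 1B.

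**Figure D3:**
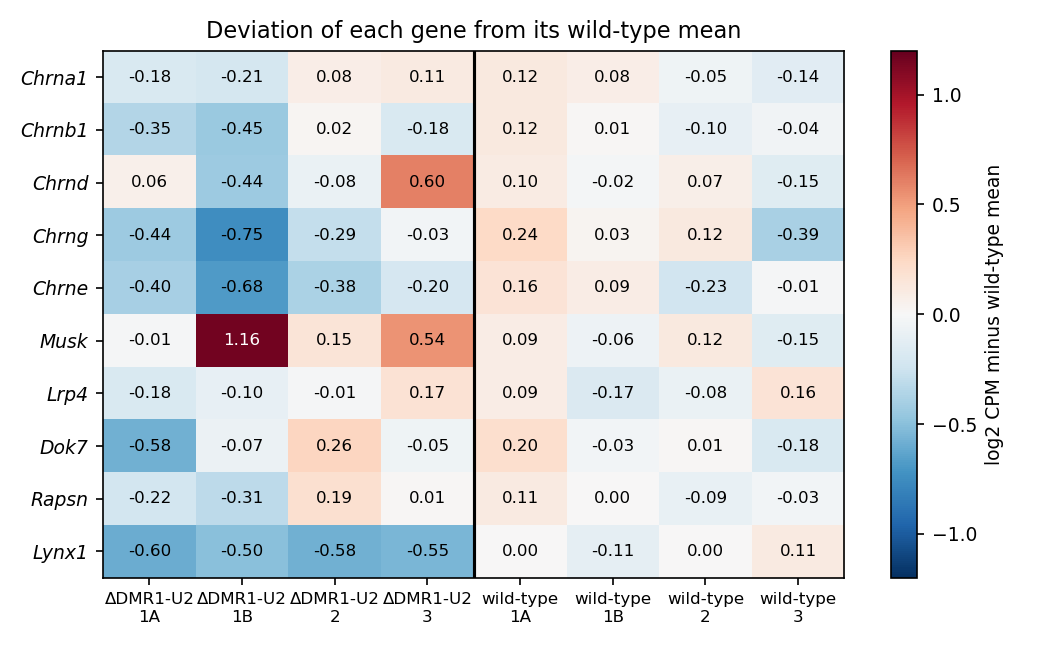
Log2 CPM of each gene in each library minus the mean of the 4 wild-type libraries for that gene, with ΔDMR1-U2 left and wild-type right of the black line. Lynx1 lies at -0.60 to -0.50 in all 4 ΔDMR1-U2 libraries, while library 1B holds the lowest Chrnb1, Chrnd, Chrne and Chrng and the highest Musk, at 1.16.

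ΔDMR1-U2 library 1B combined the lowest summed level of the 5 subunit genes with the highest Musk. The subunit sum was 202 CPM in that library, with 227, 263 and 283 CPM in the other ΔDMR1-U2 libraries 1A, 2 and 3, and 294, 274, 264 and 241 CPM in wild-type libraries 1A, 1B, 2 and 3. Its 7 skeletal muscle markers summed to 128000 CPM, the low end of the ΔDMR1-U2 range of 128000 to 147000 CPM, beside 142000 to 167000 CPM in wild-type. Fbxo32, an atrophy-related ubiquitin ligase named here after its values were seen, was at 109 CPM in library 1B, with 32.5 to 43.9 CPM in the other ΔDMR1-U2 libraries and 21.6 to 37.5 CPM in wild-type. The part of these values and of the adipocyte markers in the subunit and Musk levels was not tested.

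Of the clustering genes, none was called. Musk, the receptor kinase of the junction, had 45.1, 102, 50.4 and 66.1 CPM in ΔDMR1-U2 libraries 1A, 1B, 2 and 3, against 48.3, 43.5, 49.3 and 41.1 CPM in wild-type. Libraries 1B, 2 and 3 lay above all of wild-type, library 2 by little, and library 1A lay among the wild-type values. The fitted log2 change was 0.53 ± 0.21 (SE, edgeR adjusted p = 0.185). It was 0.24 without ΔDMR1-U2 library 1B and 0.36 without 1A and 1B. The SD of Musk was 38.9% of the mean in ΔDMR1-U2 muscle and 8.63% in wild-type.

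Lrp4, the agrin receptor, had 106, 112, 119 and 135 CPM in ΔDMR1-U2 libraries 1A, 1B, 2 and 3, against 128, 107, 114 and 134 CPM in wild-type. The groups covered nearly the same range, and the log2 fold change was -0.03 ± 0.09 (SE). Musk had 0.426, 0.909, 0.424 and 0.489 counts for each count of Lrp4, its partner in the agrin receptor, in ΔDMR1-U2 libraries, against 0.378, 0.406, 0.434 and 0.307 in wild-type. Libraries 1B and 3 lay above all of wild-type in this ratio, 1B by far, while 1A and 2 lay within the wild-type range.

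Dok7, the cytoplasmic activator of MuSK, had 10.7, 15.3, 19.2 and 15.5 CPM in ΔDMR1-U2 libraries 1A, 1B, 2 and 3, against 18.4, 15.7, 16.2 and 14.1 CPM in wild-type. Library 1A was the lowest of all 8 and library 2 the highest. Rapsn, which anchors the receptor, had 21.2, 19.8, 28.1 and 24.8 CPM in ΔDMR1-U2, against 26.7, 24.7, 23.2 and 24.2 CPM in wild-type. Libraries 1A and 1B were the lowest of all 8 and library 2 the highest. The log2 fold changes were -0.09 ± 0.15 (SE) for Dok7 and -0.07 ± 0.11 (SE) for Rapsn. Without libraries 1A and 1B they were 0.11 and 0.10. Rapsn, on chromosome 2 from 91035620 to 91045729 (mm10), shares 4 exonic bases with Gm13778 on the opposite strand. Adjusted p values of the 9 members other than Lynx1 ran from 0.173 for Chrne to 0.878 for Lrp4 (edgeR).

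**Figure D4:**
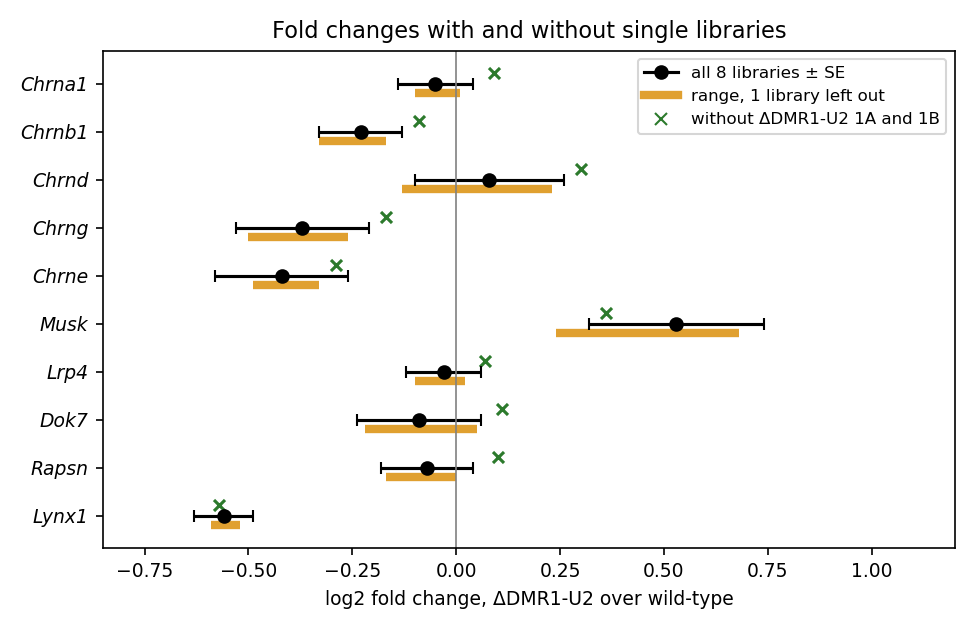
Log2 fold change of each gene, ΔDMR1-U2 over wild-type, with its standard error (black), the range when each library is left out in turn (orange) and the value without ΔDMR1-U2 libraries 1A and 1B (green). Lynx1 stays between -0.59 and -0.52 when 1 library is left out, whereas Chrna1, Lrp4, Dok7 and Rapsn take positive values without libraries 1A and 1B.

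Of the other genes of the junction, 66 tested in 4 lists that include activity-response genes, edgeR called 1, or 1.52%, beside the 1.13% over all genes. The lists were chosen with earlier results of these data known, so this share is a description and no independent support. The called gene was Camk2b, the beta chain of the calcium- and calmodulin-dependent kinase II, listed with genes that respond to electrical activity. It fell, with a log2 change of -0.93 ± 0.12 (SE, edgeR adjusted p = 0.0150), at 80.3, 56.9, 86.9 and 71.9 CPM in ΔDMR1-U2 libraries 1A, 1B, 2 and 3, against 159, 123, 136 and 146 CPM in wild-type. The groups did not overlap, as in 6.38% of all genes tested with ΔDMR1-U2 the lower group. The call of Camk2b was lost without ΔDMR1-U2 library 3 (adjusted p = 0.0595), wild-type library 1A (adjusted p = 0.0650) or wild-type library 2 (adjusted p = 0.0560, all edgeR). Without both ΔDMR1-U2 libraries 1A and 1B its log2 fold change was -0.83 (edgeR adjusted p = 0.0381). DESeq2, which called 6.44% of all genes, called 9 of the 66, Camk2b among them.

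The list of the agrin and MuSK pathway with its scaffold had 23 tested genes, of which 0 were called by edgeR, 7 had an unadjusted p under 0.05, and DESeq2 called 3 higher and 2 lower. Its median log2 fold change was -0.06. Over all genes 21.3% had an unadjusted p under 0.05 (edgeR), and DESeq2 called 6.44%. Agrn, which encodes agrin and is made by muscle as well as by nerve, had 0.09 ± 0.09 (SE), at 98.4 ± 12.9 CPM in ΔDMR1-U2 muscle and 92.4 ± 5.35 CPM in wild-type (SD, n = 4 each). The most abundant genes of this list, the cytoskeletal linkers Plec and Macf1, had -0.11 and 0.04 with standard errors of 0.14 and 0.08. Agrn, and below Ache, Colq and Myog, were named for their roles after their values were seen.

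The list of the synaptic basal lamina and acetylcholine breakdown had 14 tested genes with a median of 0.02. In it 0 were called by edgeR, 4 had an unadjusted p under 0.05, and DESeq2 called 1 higher. Ache, acetylcholinesterase, was at 51.1 ± 11.6 CPM in ΔDMR1-U2 muscle and 49.3 ± 4.67 CPM in wild-type, with a log2 fold change of 0.05 ± 0.14 (SE). Colq, the collagen tail that anchors this enzyme at the junction, was at 24.1 ± 4.47 CPM in ΔDMR1-U2 muscle and 18.3 ± 3.24 CPM in wild-type, with 0.40 ± 0.16 (SE, edgeR adjusted p = 0.181). The abundant basement membrane genes Hspg2 and Lama4 had -0.24 and -0.01, with standard errors of 0.12 and 0.06.

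The list of neuregulin signalling and transcription beneath the nerve ending had 11 tested genes with a median of -0.08. In it 0 were called by edgeR, 1 had an unadjusted p under 0.05, and DESeq2 called 1 higher. Ctnnb1, beta-catenin, had -0.12 and Gabpa, the DNA-binding subunit of GABP, had 0.04, with standard errors of 0.08 and 0.06. In the activity list of 18 tested genes the median was -0.02, and 6 had an unadjusted p under 0.05. Myog, the myogenic factor that rises in denervated muscle and acts on receptor gene E-boxes, was at 153 ± 13.2 CPM in ΔDMR1-U2 muscle and 158 ± 19.5 CPM in wild-type, with a log2 fold change of -0.05 ± 0.10 (SE).

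Nicotinic subunits outside the muscle receptor were sparse. Of 11 such genes 5 passed the filter, with 0 called by edgeR or DESeq2, 2 at an unadjusted p under 0.05 and a median log2 fold change of -0.29. Chrna9, known from hair cells of the ear, was the most abundant, at 11.2 to 16.1 CPM in ΔDMR1-U2 muscle and 12.4 to 17.5 CPM in wild-type, with -0.08 ± 0.14 (SE). Chrna4, a main subunit of brain receptors, had 3.47, 1.92, 2.69 and 3.21 CPM in ΔDMR1-U2 libraries, against 4.93, 4.02, 3.96 and 3.95 CPM in wild-type. Its groups did not overlap, as in 6.38% of all genes tested with ΔDMR1-U2 the lower group. The log2 fold change of Chrna4 was -0.57 ± 0.18 (SE, edgeR adjusted p = 0.123). Chrna2, which did not pass the filter and was not tested, went the other way. It had 0.511, 3.25, 0.239 and 1.78 CPM in ΔDMR1-U2 libraries 1A, 1B, 2 and 3. In wild-type it had 0.195, 0.191, 0.224 and 0.0849 CPM, values that rest on few counts.

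Sarcomere isoforms that change with age are set beside the receptor ratio. Of 7 embryonic and neonatal isoform genes, 0 were called by edgeR, 2 had an unadjusted p under 0.05, DESeq2 called 2 lower, and the median log2 fold change was -0.19. Of 8 isoform genes of adult muscle, 0 were called by edgeR, 7 had an unadjusted p under 0.05, DESeq2 called 3 lower, and the median was -0.21. Over all genes 21.3% had an unadjusted p under 0.05 (edgeR), and DESeq2 called 6.44%. Myh3, embryonic myosin, had -0.34 ± 0.11 (SE), and Myh8, neonatal myosin, had -0.14 ± 0.10 (SE). The summed level of the early isoforms was 34200 to 37300 CPM in ΔDMR1-U2 muscle and 37900 to 44500 CPM in wild-type. That of the adult isoforms was 12000 to 13400 CPM in ΔDMR1-U2 muscle and 14600 to 15800 CPM in wild-type. The groups did not overlap in either sum, and 12.8% of all single genes tested did not overlap. Both sums were lower in ΔDMR1-U2, so they do not rank the groups by maturity. The 7 skeletal muscle markers, which share Mylpf and Tnnt3 with the adult list, had a median of -0.15. Their sums, at 128000 to 147000 CPM in ΔDMR1-U2 muscle and 142000 to 167000 CPM in wild-type, overlapped. Mylpf and Tnnt3, of fast fibres, had -0.33 and -0.15, with standard errors of 0.09 and 0.07. Myh8 had 6.24 ± 0.680 counts for each count of Myh3 in ΔDMR1-U2 muscle and 5.47 ± 1.29 in wild-type (SD, n = 4 each), a difference within the spread, as for Chrng and Chrne.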

How the data were processed

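The authors deposited raw counts per gene for 8 libraries, with no normalization, per the file headers. Beside these stand the authors' own results, as deposited: a mean normalised signal per group, the fold (ratio) of wild-type over ΔDMR1-U2, its log2, a p-value and an adjusted p-value. Per the labels' protocols, ribosomal RNA was removed before paired-end sequencing of total RNA. Per the submitters' processing notes, HTSeq 0.5.4p3, TopHat2 2.0.9, Bowtie2 2.1.0, DESeq2 1.4.5 and FastQC 0.10.1 were used on mm10. Settings, annotation and strand are not stated there.

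Tests on the counts used edgeR 4.0.16 under R 4.3.3 (filterByExpr at a minimum count of 10, TMM scaling, quasi-likelihood test, Benjamini-Hochberg adjustment over 15241 genes, threshold 0.05), after tests on simulated data. Log2 CPM used a prior count of 2. DESeq2 1.42.0, size-factor scaling, no filter, a replicate block and fits without single libraries were alternatives. The members and lists were chosen with earlier results of these data known. Named genes are the members, up to 3 called genes of each list (smallest p) or else its 2 most abundant tested genes, and the 3 nearest profiles to Lynx1, Chrne and Chrng; others were named after their values were seen. Coordinates and lengths are from GENCODE vM21, promoters from RefSeq. The libraries of a group differed by more than sampling noise, with chi-square per degree of freedom of 10.5 to 23.1. Some genes called by DESeq2 are not reported here by name.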

Additional observations from a re-analysis of the deposited data

How the results depend on the processing

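With the replicate block (library label as a term), 13 genes were called in place of 172 and 0 members in place of 1, with Lynx1 at -0.56 (adjusted p = 0.0656, edgeR); the labels did not pair the libraries, with correlations of same-labelled deviations of -0.22 to -0.08, and 0 of 4 libraries were nearest to their own label. The block left the difference of the log2 ratio of Chrng to Chrne at 0.05. DESeq2 called 962 genes and 9 of the other junction genes in place of 1, and no filter on low counts gave 3 of these. Size-factor scaling kept all 10 members' directions and gave 164 called genes. Without ΔDMR1-U2 libraries 1A and 1B, 16 genes and 0 members were called, and sign changes were seen for Chrna1 (0.09), Rapsn (0.10), Dok7 (0.11), Lrp4 (0.07), Plec (0.08), Lama4 (0.02), Gabpa (-0.03) and Uchl1 (0.00), none of them called. Leaving out each library in turn gave 7 to 631 called genes, 0 to 1 members and 0 to 5 other junction genes. The count of all genes was 7 when ΔDMR1-U2 library 3 or wild-type 1A was left out, 10, 20 and 22 without wild-type libraries 2, 1B and 3, and 631 without ΔDMR1-U2 library 2. The other junction genes numbered 0 when ΔDMR1-U2 library 3, wild-type 1A or wild-type 2 was left out, 2 without ΔDMR1-U2 library 1A and 5 without ΔDMR1-U2 library 2. In these fits the log2 fold change crossed 0 for Chrna1 (-0.10 to 0.01), Chrnd (-0.13 to 0.23), Rapsn (-0.17 to 0.00), Dok7 (-0.22 to 0.05), Lrp4 (-0.10 to 0.02), Macf1 (-0.01 to 0.09), Lama4 (-0.05 to 0.01), Chrna9 (-0.16 to 0.02), Gpihbp1 (-0.15 to 0.00), Uchl1 (-0.10 to 0.05), Ache (-0.07 to 0.19) and Myog (-0.11 to 0.02). The cause was not tested. The counts of Chrne, 36 to 87 per library, limit the precision of its level and of the receptor ratio.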

Other observations

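The nerve terminal genes with the highest levels, Uchl1, a ubiquitin hydrolase of neurons, and Gap43, a protein of growing axons, had log2 fold changes of -0.04 and -0.18 with standard errors of 0.11 and 0.12. Uchl1 was at 9.19 to 12.2 CPM in ΔDMR1-U2 and 9.80 to 12.5 CPM in wild-type, and Gap43 at 8.12 to 11.4 CPM in ΔDMR1-U2 and 10.4 to 13.3 CPM in wild-type. Their groups overlapped.

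Of the remaining cell type lists, the summed markers were 253 to 290 CPM in ΔDMR1-U2 and 277 to 353 CPM in wild-type for macrophages, 445 to 478 CPM and 464 to 503 CPM in the same order for endothelium, 104 to 136 CPM and 114 to 155 CPM for satellite cells, 30.6 to 44.8 CPM and 29.4 to 36.4 CPM for heart, and 7.95 to 20.2 CPM and 10.1 to 18 CPM for brain. In these lists edgeR called 0 genes, with 2, 1, 0, 0 and 0 at an unadjusted p under 0.05 and 0, 1, 0, 0 and 0 called by DESeq2. Most of the heart sum was Myh6, at 28.3 to 42.8 CPM, while Tnni3 and Myl7 reached at most 1.37 and 0.247 CPM in any library. Most of the brain sum was Aqp4, at 7.47 to 19.2 CPM, while Gfap reached at most 0.955 CPM and Neurod1 was at 0. These sums therefore do not measure heart or brain RNA. Among the 7 tested adipocyte markers edgeR called 1, Cidea, higher in ΔDMR1-U2, where it called 1.13% of all genes. Cidea was at 16.1 to 30.7 CPM in ΔDMR1-U2 and 9.94 to 11.2 CPM in wild-type. All 7 had positive log2 fold changes with a median of 0.73, 2 had an unadjusted p under 0.05, and DESeq2 called 1 higher. ΔDMR1-U2 library 1B held the highest value of each of the 7.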
